A study of Mus musculus with 18 samples.

Results

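The nuclear genes for the subunits of the mitochondrial respiratory chain and of ATP synthase were followed in sorted mouse natural killer (NK) cells with and without Eomes, a T-box transcription factor of these cells. The genes were taken by symbol: protein-coding genes named Nduf a, b, c, s or v with a number, Sdha to Sdhd, Uqcr, Cox4 to Cox8 with a letter a, b or c, or Atp5. The rule gave 82 of the 41388 genes in the deposited tables: 37 of complex I, 4 of complex II, 8 of complex III, 16 of complex IV and 17 of ATP synthase. It used no measured value. Complexes were assigned by the start of the symbol alone, which puts Ndufa4 and Ndufa4l2 under complex I, and were not checked against protein data. Atp5s, named coupling factor, came in through its symbol and is counted under ATP synthase for that reason only. Cox4i1, Cyc1 and Ndufab1, which are subunits too, did not match and are given only as part of the wider pathway. Of the 82 members, 78 passed the filter on low counts.

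NK cells were purified from pooled spleens of C57BL/6 mice aged 8 to 12 weeks and sorted by surface CD27 and CD11b into 3 stages in the order of their maturation: CD27 alone for stage II, CD27 with CD11b for stage III and CD11b alone for stage IV. The KO groups came from mice with a tamoxifen-inducible Cre in 1 allele of Ncr1, which encodes an NK cell receptor, a Cre-dependent YFP reporter at Rosa26 and floxed Eomes (Ncr1-iCreERT2 KI/WT, Rosa26YFPLSL, Eomes fl/fl), treated with tamoxifen. The WT label names no further alleles, and the 3-day treatment is listed for all samples alike, so whether WT mice carried Cre or received tamoxifen is uncertain and the drug, the Cre and the deletion cannot be told apart. By the Xist levels given with the depths, the sex of the pooled mice also differed between KO and WT in replicates 2 and 3, and its part cannot be told apart from the deletion there. Levels of Ncr1, the gene that holds the Cre in KO mice, are given there too. They were within the KO range in WT replicate 1 and above it in WT replicates 2 and 3. Whether the WT replicates differed in that allele is not stated and was not tested. Each of the 6 groups of genotype and stage had 3 libraries, 18 in all, from 3 separate experiments, but which replicate number belongs to which experiment, and how many mice were pooled, is not stated. The p-values therefore measure only the spread between these pooled libraries. The comparison asks which of these genes depend on Eomes at each stage.

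As background, complex I (NADH dehydrogenase) and complex II (succinate dehydrogenase, also an enzyme of the citric acid cycle) pass electrons to ubiquinone, complex III passes them on to cytochrome c, and complex IV (cytochrome c oxidase) passes them to oxygen. Complexes I, III and IV pump protons across the inner mitochondrial membrane, and ATP synthase uses the gradient to make ATP. Some subunits of the proton-moving complexes are encoded in the mitochondrial genome and all others by nuclear genes like those described here. NK cells draw on this pathway at rest and more strongly when cytokines activate them.

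Transcription of many of these genes is known to use the factors NRF1, GABP (of the ETS family) and YY1, so the promoters were searched for their core letters. RefSeq promoter windows of GRCm38.p6, 250 bases before to 50 after a gene's start, were matched to 66 of the 82 members by symbol. Of 32851 windows, only the first listed for each symbol was used, and 4163 symbols had several. Among the missing 16 were Ndufs1, Ndufa2, Ndufa4l2, Ndufb9, Sdhc, Uqcrb, Uqcrc2, Uqcrq, Cox6a2, Cox6c, Cox8c, Atp5a1, Atp5f1, Atp5s and Atp5mpl. Searched on both strands, the NRF1 letters GCGCATGCG were in 8 of the 66 windows (12.121%), against 1.809% of the 27025 windows used. The ETS letters CCGGAAG were in 15 (22.727% against 9.121%), and the YY1 letters AAGATGGCG in 6 (9.091% against 1.495%). The 8 with the NRF1 letters were Cox6a1, Uqcrc1, Uqcr11, Ndufa8, Ndufa11, Atp5k, Atp5l and Atp5g2, and the 6 with the YY1 letters were Ndufa9, Ndufc1, Ndufs4, Ndufs6, Ndufs7 and Atp5j2. Such a match is a description of the letters, not a site of binding.

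The 250 bases before the RefSeq start are shown for 4 members, 5' to 3' on the gene's own strand, which is the minus strand in each, with matches to the 3 motifs in capitals. Cox6a1 (chr5:115348959-115349208) holds the NRF1 letters on both strands, which overlap and give 10 capitals, and, nearer the start, the ETS letters on the opposite strand. Atp5k (chr5:108434400-108434649) holds the same NRF1 run, with its ETS letters after the start and not shown, and Ndufs3 (chr2:90904722-90904971) the ETS letters. Cox7a2l (chr17:83514334-83514583) holds none of them here and is shown because several results below turn on it.
Cox6a1: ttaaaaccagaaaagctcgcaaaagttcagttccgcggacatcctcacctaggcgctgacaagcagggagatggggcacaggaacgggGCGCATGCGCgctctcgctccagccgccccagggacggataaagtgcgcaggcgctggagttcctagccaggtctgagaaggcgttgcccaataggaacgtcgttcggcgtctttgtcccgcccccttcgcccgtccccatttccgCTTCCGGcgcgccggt
Atp5k: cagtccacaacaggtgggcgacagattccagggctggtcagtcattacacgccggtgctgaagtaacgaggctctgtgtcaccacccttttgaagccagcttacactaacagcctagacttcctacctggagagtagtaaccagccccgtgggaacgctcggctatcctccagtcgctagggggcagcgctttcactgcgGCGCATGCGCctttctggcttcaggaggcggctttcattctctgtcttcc
Ndufs3: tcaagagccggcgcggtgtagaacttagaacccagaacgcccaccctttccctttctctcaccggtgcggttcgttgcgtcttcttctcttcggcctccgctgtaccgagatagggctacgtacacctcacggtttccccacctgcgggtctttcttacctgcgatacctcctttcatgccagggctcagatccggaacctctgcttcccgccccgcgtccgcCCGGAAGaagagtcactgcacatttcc
Cox7a2l: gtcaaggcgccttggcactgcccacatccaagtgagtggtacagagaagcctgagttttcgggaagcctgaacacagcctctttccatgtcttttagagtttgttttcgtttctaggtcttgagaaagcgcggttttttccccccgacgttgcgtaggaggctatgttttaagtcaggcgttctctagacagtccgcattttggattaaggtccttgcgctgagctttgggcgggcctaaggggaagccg

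Most members were expressed at similar levels in every group but KO stage III. Levels here are CPM, counts relative to library totals rescaled by edgeR's TMM factors, and levels of different genes are compared per kilobase of the listed gene length. The highest were Cox6b1 (complex IV) at 458 CPM per kilobase over the 18 libraries, Ndufa4 at 448, Cox8a at 440 and Ndufa6 at 434. Atp5a1, the catalytic core's alpha subunit, led ATP synthase at 270, Uqcr10 led complex III at 266, and Sdhd, a membrane anchor of succinate dehydrogenase, led complex II at 184. Tissue-specific isoforms were low: Cox7a1 was at 1.5 CPM per kilobase against 217 for Cox7a2, Cox6b2 at 2.7 against 458 for Cox6b1, and Cox6a2 at 19.4 against 334 for Cox6a1. The isoforms Cox7b2, Cox8b, Cox8c and Ndufa4l2 failed the filter. Ndufa4l2 and Cox8b never exceeded 3 counts in a library, Cox8c reached 14 and Cox7b2 31. Of the genes for the c-ring subunit of ATP synthase, Atp5g3 was at 107 CPM per kilobase, Atp5g1 at 0.912 and Atp5g2 at 0.678. Genes with near-identical copies elsewhere are uncertain, since the counting could split their reads. At 97% identity or more over at least 50 bases, other genes covered 72.2% of the Atp5l transcript, 46.9% of Ndufs5, 40.2% of Ndufb4 and 32.9% of Cox7c. Well-expressed members with over 60% so covered were Atp5o, Ndufs3, Atp5h, Uqcrb and Atp5f1. The counting's strand setting is not known from these sources, so antisense reads cannot be told apart.

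Total counts were 18684350 to 28365837 per library. Eomes itself was lower in all KO libraries than in the WT libraries of the same stage: 51.4, 71.1 and 57.1 CPM against 169, 208 and 209 at stage II, 181, 153 and 173 against 278, 255 and 282 at stage III, and 119, 111 and 86.2 against 245, 244 and 280 at stage IV. Transcript from outside the floxed part can still be counted, and residual wild-type cells cannot be told apart from it. The NK cell genes Ncr1, Klrb1c, Klrd1, Klrk1 and Nkg7 were at 964 CPM or more in all 18 libraries. Il2rb, Gzma and Tbx21 fell to 626 (KO stage III replicate 3), 735 (KO stage II replicate 1) and 87.9 (WT stage II replicate 3). Pax5, Cd4 and Cd8a were at 0.592 CPM or less, but other markers of other cells were not. Cd74 reached 697 CPM (KO stage II replicate 2), Cd3d and Cd3g 137 and 130 (WT stage II replicate 2), and Itgax 535 (KO stage III replicate 2). KO stage III replicates 1 and 3 stood apart, with counts in 14824 and 16536 genes, the fewest of all, and TMM factors of 0.883 and 0.783, the lowest of all. KO stage III replicate 2 had counts in 21454 genes and a factor of 1.02. WT replicate 1 of each stage also differed from the other WT libraries, with Ncr1 at 2043 to 2102 CPM against 3574 to 4189 (KO 1631 to 2216) and Xist at 34.3 to 41.9 CPM against at most 0.648 (KO 7.23 to 34.5). Results of KO against WT at stage III are given with and without the first and the third of these libraries.

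The summed level of the 82 members was flat across most of the series and high in KO stage III replicates 1 and 3. It was 12016, 13355 and 12860 CPM in WT stage II and 12368, 12374 and 12714 in KO stage II. The WT stage III libraries stood at 12459, 12293 and 12099, and the KO stage III libraries at 19405, 11695 and 19175. For stage IV the sums were 11027, 11573 and 11284 (WT) and 12582, 10620 and 10324 (KO). KO stage III replicate 2 thus lay below all 3 WT libraries of its stage while the other replicates lay above every other library of the series. As shares of each library's raw counts, with no TMM scaling, the members took 1.71%, 1.19% and 1.5% in KO stage III and 1.19% to 1.29% in WT stage III.

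**Figure D1:**
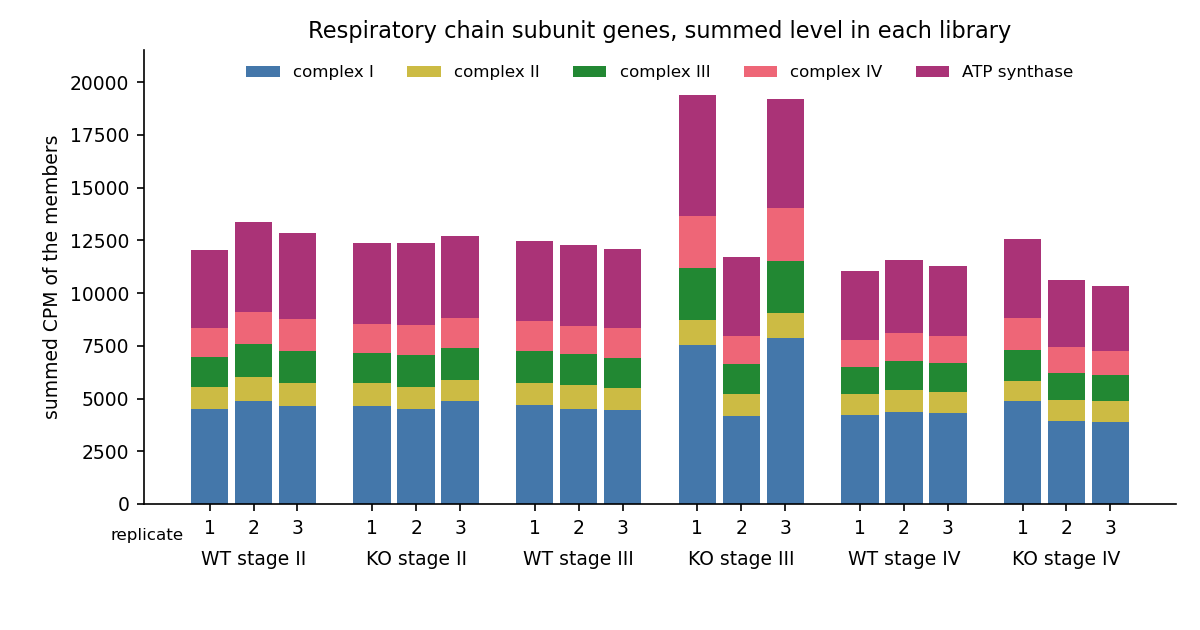
Summed CPM of the 82 members in each of the 18 libraries, stacked by complex; each bar is 1 library, labelled by replicate number within its group of genotype and stage. KO stage III replicates 1 and 3 reach 19405 and 19175, and the other 16 libraries lie between 10324 and 13355.

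Outside those 2 libraries the members varied little. Over the other 16 libraries the highest level of a member was a median of 1.4 times its lowest (on the log scale with a prior count of 2), and 74 of the 78 tested members stayed within 2-fold, against 6368 of all 14156 tested genes (median 2.15). Among genes above a mean of 32 CPM the medians were 1.39 for 66 members and 1.59 for 5008 genes. The steadiest were Uqcrq at 1.22, Sdhb at 1.23 and Ndufb8 at 1.24. The 4 beyond 2-fold were low-level isoforms: Cox6a2 at 16.1, Cox6b2 at 4.43, Atp5g2 at 3.30 and Cox7a1 at 3.08.

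At stages II and IV no difference between KO and WT cells passed the test for any member. At stage II, 0 of 78 were called at an adjusted p under 0.05 by edgeR's quasi-likelihood test, where 1.46% of all tested genes were called in either direction, and 1 member had an unadjusted p under 0.05. DESeq2 called 0 and limma voom with quality weights 1. The median log2 fold change was -0.02 over the members, and it was -0.01 in complex I, -0.10 in complex II, -0.01 in complexes III and IV, and -0.10 in ATP synthase, in which 14 of 17 members were lower. At stage IV, 0 of 78 were called against 0.523% of all tested genes, 0 had an unadjusted p under 0.05, and the median was -0.02, with complex medians from -0.03 to 0.05. Both other tools called 0 as well. Core subunits show the precision. Ndufs1, which holds iron-sulfur clusters of complex I, differed by -0.02 ± 0.11 (SE, n = 3 against 3) at stage II and by -0.02 ± 0.11 at stage IV. Atp5b, the catalytic beta subunit of ATP synthase, differed by -0.01 ± 0.12 and -0.04 ± 0.12, and Uqcrc2, a core subunit of complex III, by -0.09 ± 0.11 and -0.08 ± 0.11.

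KO stage IV replicate 1 stood above WT for most members. In that library 61 of the 78 members lay above all 3 WT stage IV libraries, while in replicates 2 and 3 it was 5 and 4, and 50 and 55 members lay below all 3. For the members the KO stage IV replicates thus lay on both sides of WT. The share of all tested genes outside the WT range in a single library is not given. Set against the mean of the other KO stage IV libraries, replicate 1 was higher in 92.31% of the members. Among the 5008 tested genes above a mean of 32 CPM it was higher in 51.28%.

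At stage III, 19 of the 78 members were called higher in KO cells (24.4%, against 5.31% of all tested genes) and 0 lower (against 2.87%). The median log2 fold change was 0.52, a ratio of 1.44, and 74 of the 78 were positive. By complex the calls were 10 of 36 in complex I, 0 of 4 in complex II, 3 of 8 in complex III, 5 of 13 in complex IV and 1 of 17 in ATP synthase. The medians were 0.53, 0.05, 0.57, 0.60 and 0.43 in that order. These counts rest on replicates 1 and 3: in them 74 and 71 of the 78 members lay above all 3 WT libraries, while in replicate 2 it was 12, with 49 below all 3. The same counts over all tested genes are not given. Replicates 1, 2 and 3 lay above the WT stage III mean in 94.87%, 24.36% and 92.31% of the members. Among the 5008 tested genes above a mean of 32 CPM it was 50.22%, 45.31% and 50.52%. Without replicates 1 and 3, 0 members were called (0.887% of all genes in either direction) and the median was -0.12, with 63 of 80 tested members lower; the lone KO library left is assumed to vary like the other groups. Without replicate 2, 61 members were called higher (against 15.1%) and 1 lower, Sdha. Leaving out any other library lowered the count: to 0 or 1 without a WT stage III library, to 0 without KO stage III replicate 1 or 3, and to 8 to 13 without a library of stage II or IV. In a fit of the 6 stage III libraries alone, 0 members were called (against 0.0798%). Scaling by library totals, chosen after seeing the data, gave 7 called members and shifted the median of all genes from 0.02 to -0.14, and the calls over all genes from 751 higher and 406 lower to 217 and 315.

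**Figure D2:**
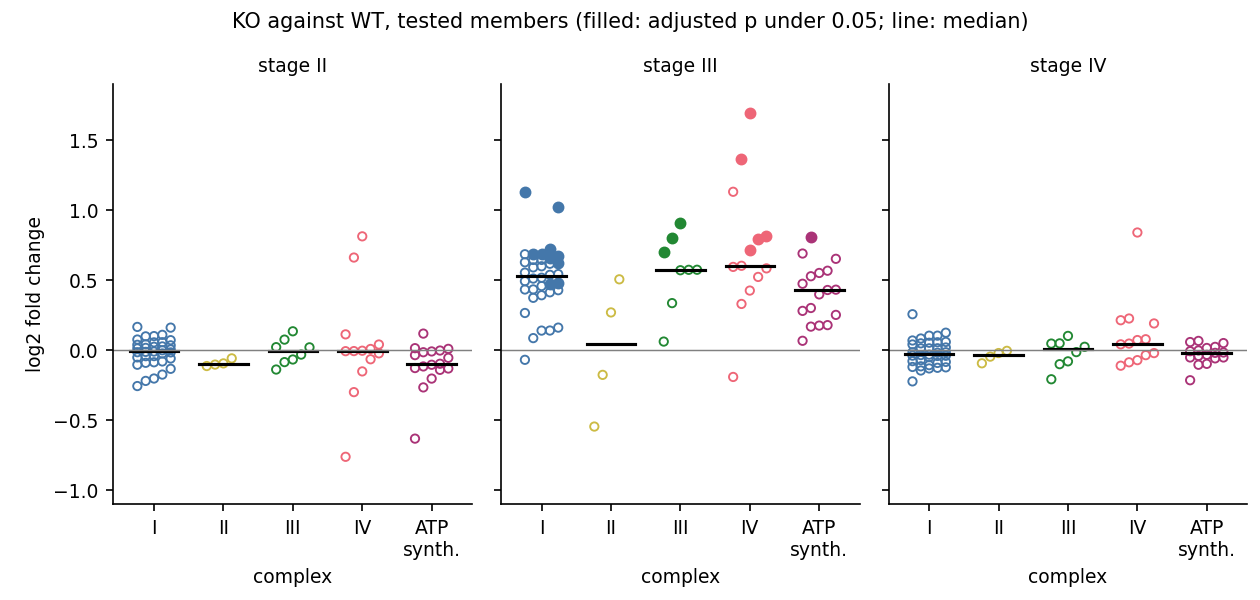
Log2 fold change of KO against WT for the 78 tested members at stages II, III and IV, by complex; each point is a gene, filled where called, and each black line is the median of the complex. Points lie around 0 at stages II and IV and mostly between 0 and 1 at stage III, except in complex II.

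In complex I the called members rose by a log2 fold change of 0.47 to 1.13. Ndufa7, an accessory subunit, was at 306, 139 and 505 CPM in KO stage III and at 157, 138 and 141 in WT. The groups overlapped, since replicate 2 lay within the WT range, and the log2 fold change was 1.13 ± 0.28 (adjusted p = 0.0283), or -0.07 without replicates 1 and 3. Ndufc1, another accessory subunit, rose by 1.02 ± 0.28 (adjusted p = 0.0391) and was at -0.14 without those libraries. Ndufv1, the subunit that binds NADH and flavin, was at 197, 152 and 185 CPM against 127, 135 and 124. Here all 3 KO libraries lay above all 3 WT libraries, and the rise was 0.47 ± 0.10 (adjusted p = 0.0166), or 0.23 with no call without replicates 1 and 3. Of the other core subunits, Ndufs3 and Ndufv2 rose by 0.66 and 0.69 (0.14 and -0.08 without replicates 1 and 3, not called), while Ndufs1 differed by -0.07 ± 0.11 and did not pass.

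In complex II the subunits differed in sign. Sdha, the flavoprotein that oxidises succinate, was at 233, 372 and 182 CPM in KO stage III and at 359, 417 and 375 in WT. It was thus lowest in the same libraries in which most other members were highest, and its log2 fold change was -0.55 ± 0.22 (adjusted p = 0.108). It was also lowest in KO stage IV replicate 1, at 237 CPM against 377 and 372 in the other KO stage IV libraries. Sdhb, the iron-sulfur subunit, stood at 0.50 ± 0.19 (adjusted p = 0.0897), Sdhd at 0.27 ± 0.13 (adjusted p = 0.179) and Sdhc at -0.18 ± 0.13 (adjusted p = 0.378).

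In complex III, Uqcrq, Uqcrfs1 and Uqcr10 rose. Uqcrq, the ubiquinone-binding protein, was at 246, 134 and 367 CPM against 132, 133 and 134 in WT, so KO replicate 2 lay just above WT and the others far above, and it rose by 0.91 ± 0.23 (adjusted p = 0.0272). Uqcrfs1, the Rieske iron-sulfur protein, was at 301, 169 and 316 against 143, 150 and 158 with no overlap, and rose by 0.80 ± 0.18 (adjusted p = 0.0199). Uqcr10 rose by 0.70 ± 0.20 (adjusted p = 0.0417). Without replicates 1 and 3 the values were 0.0046 for Uqcrq, 0.16 for Uqcrfs1 and -0.08 for Uqcr10, with no call. The core proteins Uqcrc1 (0.57 ± 0.17, adjusted p = 0.0506) and Uqcrc2 (0.06 ± 0.11, adjusted p = 0.740) did not pass.

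In complex IV, Cox6b2, Cox6a2, Cox5b, Cox8a and Cox5a rose. Cox6b2, the testis isoform of subunit VIb, was barely expressed, at 9.22, 4.46 and 6.87 CPM in KO against 3.84, 1.58 and 0.941 in WT, and rose by 1.70 ± 0.46 (adjusted p = 0.0361). All 3 KO libraries lay above WT, and without replicates 1 and 3 the value was 1.07 with no call. Cox5a and Cox5b, nuclear subunits on the matrix side of the enzyme, rose by 0.71 ± 0.19 (adjusted p = 0.0366) and 0.81 ± 0.19 (adjusted p = 0.0218). Cox8a rose by 0.79 ± 0.19 (adjusted p = 0.0239). Without replicates 1 and 3 the values of Cox5a, Cox5b and Cox8a were -0.02, 0.11 and 0.06, with no call. In ATP synthase, only Atp5e, the epsilon subunit, was called by edgeR, at 552, 214 and 407 CPM against 238, 215 and 218 in WT (0.81 ± 0.23, adjusted p = 0.0440). Its replicate 2 was level with the lowest WT library, and without the other replicates its log2 fold change was -0.08. The catalytic subunits Atp5a1 and Atp5b stood at 0.07 ± 0.10 and 0.17 ± 0.12.

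Over all 78 tested members, 11 had all 3 KO stage III libraries above all 3 WT libraries (14.1%, against 9.29% of all tested genes): Atp5d, Cox5b, Cox6a2, Cox6b2, Cox7a1, Cox7a2l, Ndufa10, Ndufs3, Ndufv1, Uqcrfs1 and Uqcrq. Replicate 2 also lay above WT for Atp5g2, at 1.4 CPM, where replicate 1 overlapped, and for the other members it overlapped WT or lay below it.

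The size of the difference moved with gene length in the libraries that stood apart. Over the 78 members, which share these libraries and their depth, the Pearson correlation of the log2 difference from mean WT stage III with log2 gene length was -0.37 in KO stage III replicate 1 and -0.39 in replicate 3, and -0.05 in replicate 2. Over the 5008 tested genes above a mean of 32 CPM it was -0.40, -0.31 and -0.02. Among other genes above that level and up to 1000 bases long, the median log2 differences in replicates 1 and 3 were 0.73 and 0.60, and for 24 members in that range they were 0.79 and 0.86. From 1000 to 2000 bases they were 0.49 and 0.43 for other genes and 0.81 and 0.59 for 21 members. From 2000 to 4000 bases they were 0.06 and 0.04 for other genes and 0.60 and 0.70 for 17 members, and beyond 4000 bases -0.23 and -0.23 for other genes and 0.48 and 0.30 for 4 members. The members' medians were thus above those of other genes in each length class, and the shortest genes of all kinds were raised. KO stage IV replicate 1, set against the other KO stage IV libraries, gave a correlation of -0.30 over the members and -0.12 over the 5008 genes. The part of length, RNA quality or library preparation in the stage III result was not tested.

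**Figure D3:**
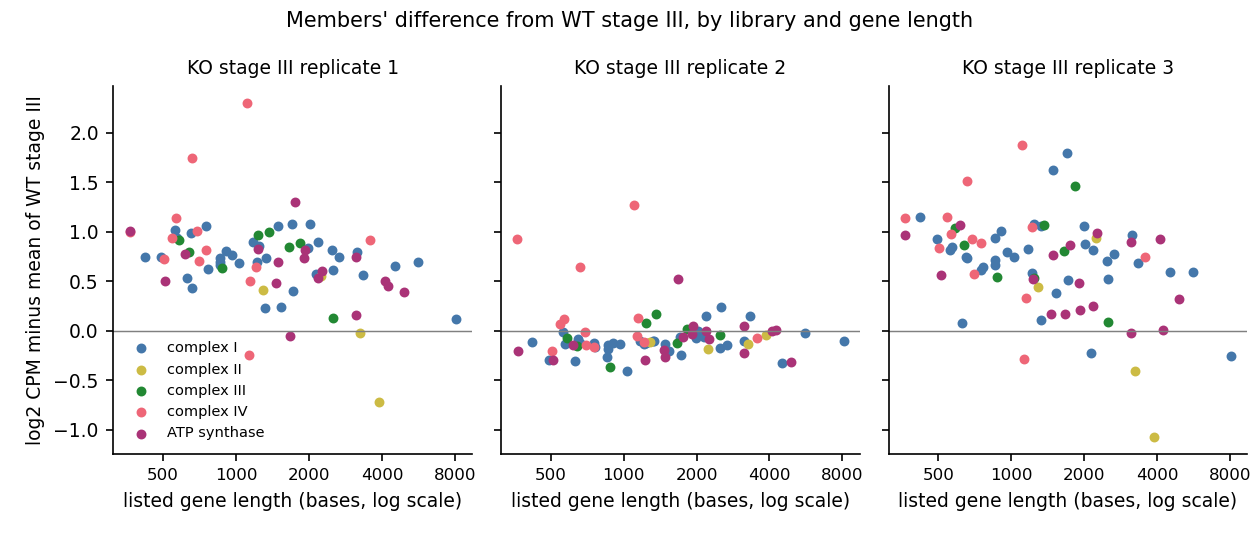
Log2 CPM of each tested member minus its mean in WT stage III, against the listed gene length on a log scale, in the 3 KO stage III libraries; each point is a gene, coloured by complex. In replicates 1 and 3 most points lie above 0, with smaller values among longer genes and Sdha lowest, and in replicate 2 most lie slightly below 0.

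Markers of other cells also differed among these libraries. The summed CPM of 8 B cell markers was 72.5, 295 and 120 in KO stage III replicates 1, 2 and 3 and 24.9 to 47.1 in WT stage III, highest in the replicate in which the members were not raised. It came mostly from Cd74 and the class II genes, with Pax5 at 0.057 CPM or less. Cd79b was called higher in KO (1.73 ± 0.26, adjusted p = 0.00125, or 1.07 with no call without replicates 1 and 3), and Cd79a and Ms4a1 were both at 2.01 CPM in replicate 2. The 7 T cell markers summed to 60.2, 35.4 and 52.3 against 22 to 29.2, higher in replicates 1 and 3, with Cd4, Cd8a and Cd5 at 0.31 or less. The 7 myeloid markers summed to 347, 612 and 433 against 379 to 411, mostly Itgax. Lyz2 was at 62 CPM in replicate 2 against 0.759 to 2.7 in WT, and Csf1r at 9.8 against at most 1.47. The 7 erythroid and platelet markers summed to 10.8, 11.8 and 9.28, against 1.81 to 8.14 in the other 15 libraries. The 6 markers of type 1 innate lymphoid cells (ILC1), a related lineage, summed to 177, 104 and 134 against 26.3 to 35.3. They were above WT in each replicate and highest in replicates 1 and 3, and all 6 were called higher, with a median log2 fold change of 2.49. Without replicates 1 and 3 their values were 1.02 to 4.49, with a median of 1.95. At stage II, 5 of the 6 were also called higher in KO (against 1.46% of all tested genes in either direction). The part of any of these cells in the stage III result was not tested. In sorted bulk RNA, a different number of cells of some kind and a different amount of RNA per cell cannot be told apart.

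The change of the KO effect between stages was tested directly. For stage III against II, 0 members were called (against 0.0565% of all genes), although 37 had an unadjusted p under 0.05 and the median interaction was 0.53. DESeq2 and limma voom with quality weights each called 1, Cox6a2. For stage IV against III, 0 were called (against 0.0283%), 37 had an unadjusted p under 0.05, and the median was -0.56. For stage IV against II, 0 were called (against 0.219%), 1 had an unadjusted p under 0.05, and the median was 0.02. DESeq2 and limma voom also called 0 in both. Without KO stage III replicate 2, 57 members were called higher in the interaction of stage III against II (against 6.97%) and 1 lower, Sdha.

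With maturation in WT cells the members declined slightly and together, and in the fit over all libraries few were called. From stage II to IV, 63 of 78 were lower, the median log2 fold change was -0.15, a ratio of 1.11, and 4 were called lower (5.13%, against 9.82% of all genes) and 0 higher (against 5.35%). The 4 were Cox6a2, Cox7a2l, Atp5g3 and Atp5a1. Atp5a1 lost its call in 17 of the 18 fits that left out 1 library, all but that without WT stage II replicate 1, with log2 fold changes of -0.39 to -0.23. Atp5g3 lost it in 4, those without WT stage II replicate 2 or 3 or WT stage IV replicate 1 or 3. The members' share of calls was thus below that of all genes. Leaving out 1 library gave 2 calls without WT stage II replicate 2 or 3 or WT stage IV replicate 1 or 3, 6 without KO stage III replicate 2, and 3 or 4 otherwise. With scaling by totals the calls over all genes went from 757 higher and 1390 lower to 503 and 1566, and 9 members were called. In the WT libraries, replicates with the same number deviated together, though weakly between stages II and IV (correlations 0.25, 0.13 and 0.21). KO stage II with WT stage IV, not used as pairs, gave 0.29, 0.18 and 0.13. The replicate number was also used as a block in a fit of the 9 WT libraries, chosen after seeing the data. There 36 members were called lower (46.2%, against 23.6%) and 1, Ndufs7, higher. The same fit without the block called 22 lower (against 18.1%). All 3 WT stage IV libraries lay below all 3 WT stage II libraries in 36 members (46.2%, against 22.3%).

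Under the block members of all 5 complexes fell. In complex I 15 members fell, from -0.44 ± 0.08 for Ndufc2 to -0.16 ± 0.06 for Ndufa8, and Ndufs7 was higher by 0.17 ± 0.06 (adjusted p = 0.0255). In complex II, Sdha, Sdhc and Sdhd fell by 0.14 to 0.19, in complex III Uqcrh, Uqcrc2, Uqcr10 and Uqcr11 fell by 0.20 to 0.46, and in complex IV Cox6a2 fell by 3.47, Cox7a2l by 0.69, Cox5a by 0.31 and Cox6c by 0.20. In ATP synthase 10 members fell, among them Atp5g3, the main c-ring gene, by 0.57 ± 0.06, the catalytic Atp5a1 by 0.32 ± 0.05 and Atp5b by 0.18 ± 0.05. Atp5g3 was at 236, 284 and 273 CPM in WT stage II, 236, 248 and 232 in WT stage III, and 172, 198 and 164 in WT stage IV. Its stage II and IV libraries did not overlap, and stage III lay close to the lower end of stage II.

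The steps between neighbouring stages were small. From WT stage II to III the median was -0.04 and 1 member was called lower, Cox6a2 (against 1.95%). From stage III to IV it was -0.12 and 2 were called lower, Cox6a2 and Cox7a2l (against 2.47%). In KO cells from stage II to IV, 63 of 78 members were lower with a median of -0.12, and 1 was called lower, Cox6a2 (against 8.79%), or 10 without KO stage III replicate 2. All 3 KO stage IV libraries lay below all 3 KO stage II libraries in 14 members (17.9%, against 20% of all genes). A fit without the 3 KO stage III libraries, chosen after seeing the data, called 16 members lower in KO (against 15% of all genes), of which 9 were in complex I, 3 in ATP synthase, 3 in complex IV and 1 in complex III. The WT and KO comparisons share no library, and the interaction that compares them is the one of stage IV against II given above, with 0 members called.

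**Figure D4:**
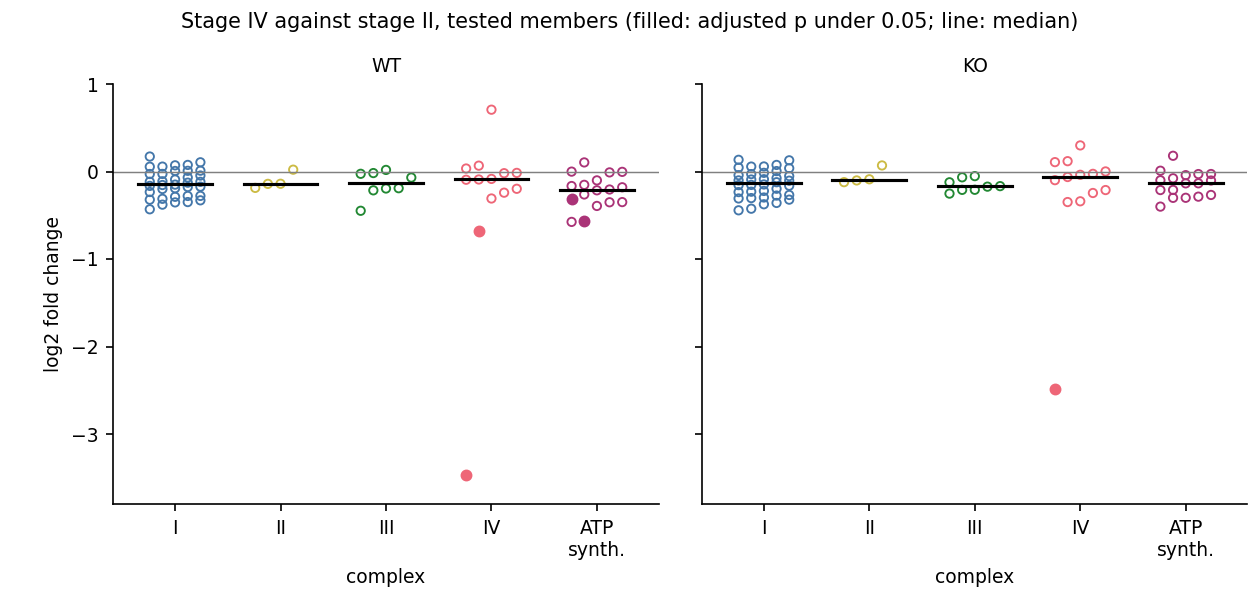
Log2 fold change of stage IV against stage II for the 78 tested members in WT and in KO cells, by complex; each point is a gene, filled where called in the fit over all 18 libraries, and each line is the median of the complex. All medians lie slightly below 0, and Cox6a2 lies far below at -3.47 in WT and -2.48 in KO.

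Signs of other cells also changed with stage. B cell markers summed to 483 to 660 CPM in WT stage II and 12.4 to 45.5 in WT stage IV, mostly Cd74, with Pax5 at 0.182 or less in both groups. T cell markers summed to 238 to 315 and 8.55 to 9.77, mostly Cd3d and Cd3g, with Cd8a at 0.33 or less, and the ILC1 markers to 344 to 674 and 17.6 to 21.3. Their part in the fall of the members was not tested.

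Cox6a2 (ENSMUSG00000030785, chromosome 7, 128205436 to 128206366, minus strand, GRCm38), the heart and muscle isoform of subunit VIa, changed most. It was at 20.2, 31.1 and 28.2 CPM in WT stage II, 9.82, 6.51 and 8.32 in WT stage III, and 2.18, 2.17 and 2.84 in WT stage IV. These groups did not overlap, and the log2 fold change was -1.69 ± 0.33 from stage II to III (adjusted p = 0.00675), -1.78 ± 0.35 from III to IV (adjusted p = 0.00692) and -3.47 ± 0.36 from II to IV (adjusted p = 3.72e-06), a ratio of 11.1. In KO cells it was at 16.4, 17.6 and 12.9 CPM in stage II, 27.5, 12.7 and 23.3 in stage III, and 4.76, 1.9 and 1.85 in stage IV. KO lay below WT at stage II with no overlap (-0.76 ± 0.32, adjusted p = 0.462) and above WT at stage III with no overlap (1.37 ± 0.33, adjusted p = 0.0242). At stage IV the difference was 0.23 ± 0.36 (adjusted p = 1.0). Without KO stage III replicates 1 and 3, the stage III value was 0.62 ± 0.38 (adjusted p = 0.893). From stage II to IV it fell in KO cells too, by 2.48 ± 0.35 on the log2 scale (adjusted p = 6.8e-05). The common isoform Cox6a1 showed no such pattern, with a log2 fold change of -0.02 ± 0.16 from WT stage II to IV.

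Cox7a2l (ENSMUSG00000024248, chromosome 17, 83501919 to 83514333, minus strand, GRCm38), also known as SCAF1, is a relative of subunit VIIa. Its transcript fell in WT cells from stage III to IV and from II to IV. It was at 171, 183 and 182 CPM in WT stage II, 159, 154 and 151 in WT stage III, and 120, 108 and 105 in WT stage IV. These groups did not overlap, and the log2 fold change was -0.21 ± 0.11 from stage II to III (adjusted p = 0.573), -0.48 ± 0.11 from III to IV (adjusted p = 0.0252) and -0.68 ± 0.11 from II to IV (adjusted p = 0.000446). The call from III to IV was lost in 10 of the 18 fits that left out 1 library, at -0.54 to -0.44 over the 18, and that from II to IV in 0. The 10 left out a library of WT stage III or IV, WT stage II replicate 2 or 3, or KO stage II replicate 2 or 3. In KO cells it was at 157, 169 and 156 CPM in stage II, 219, 169 and 195 in stage III, and 143, 122 and 115 in stage IV. From KO stage II to IV it changed by -0.34 ± 0.11 (adjusted p = 0.0513). Its close relative Cox7a2 differed by -0.09 ± 0.20 in WT from stage II to IV.

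**Figure D5:**
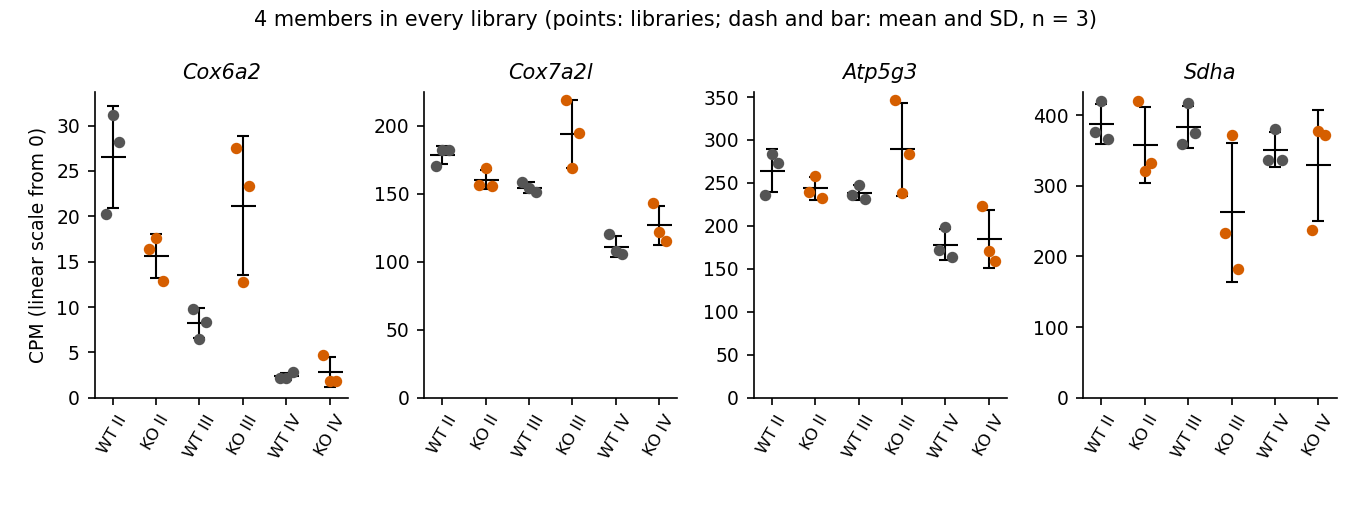
CPM of Cox6a2, Cox7a2l, Atp5g3 and Sdha in each library, on linear axes from 0; points are libraries, grey for WT and orange for KO, and the dash and bar are the group mean and SD (n = 3). The means of Cox6a2, Cox7a2l and Atp5g3 are lowest in stage IV of both genotypes, and Sdha is lowest in KO stage III replicates 1 and 3 and KO stage IV replicate 1.

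The other genes of the pathway were counted by list, beside shares over all tested genes of 5.31% higher in KO stage III and 9.82% lower from WT stage II to IV. Without KO stage III replicates 1 and 3, 0 genes of any list in this and the next 2 paragraphs were called by edgeR between KO and WT at stage III, where at most 2 of a list had an unadjusted p under 0.05. Of the 13 mitochondrially encoded subunits, 8 were tested, and mt-Nd4l, mt-Co2, mt-Co3, mt-Atp6 and mt-Atp8 had counts near 0 in all libraries. From WT stage II to IV, 5 of the 8 fell, with a median of -0.52: mt-Nd6 by 0.84 ± 0.18, mt-Nd5 by 0.81 ± 0.22, mt-Co1 by 0.74 ± 0.16, mt-Nd4 by 0.51 ± 0.16 and mt-Cytb by 0.46 ± 0.15. In KO against WT at stage III, 1 of 8 rose (mt-Nd1, 0.70 ± 0.19, or 0.19 without those libraries) and 0 were called at stages II and IV. Of 6 tested subunits and carriers outside the symbol pattern, Atpif1, the inhibitor of ATP synthase, rose in KO stage III (0.76 ± 0.19, or 0.13 without those libraries) and 0 were called at the other stages.

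Of 51 tested assembly factors, which build the complexes, 6 rose in KO stage III, led by Timmdc1 (1.22 ± 0.36) and Cox18 (1.07 ± 0.23), with a median of 0.36 over the list, or -0.06 without those libraries, and 0 were called at stages II and IV. From WT stage II to IV, Coa7 fell by 0.98 ± 0.21 and Ndufaf4 by 0.71 ± 0.18. Of 7 carriers and porins, Slc25a4, an ADP/ATP carrier that exports the ATP made by ATP synthase, fell by 1.68 ± 0.13 from WT stage II to IV and by 1.01 ± 0.12 in KO cells, and rose by 0.72 ± 0.12 in KO against WT at stage III, or stood at 0.48 with no call without those libraries. Slc25a5, the other main ADP/ATP carrier, fell by 0.52 ± 0.16 in WT. Of 16 genes of the citric acid cycle and pyruvate dehydrogenase, Suclg1, Fh1 and Idh3a fell from WT stage II to IV, by 0.57, 0.54 and 0.52, and in KO stage III the list's median was -0.04. Of 16 regulators of mitochondrial biogenesis, among them Ppargc1a, Nrf1, Gabpa, Yy1 and Tfam, 0 were called by edgeR between KO and WT at any stage, where 1, 3 and 0 had an unadjusted p under 0.05 at stages II, III and IV, and 0 were called from WT stage II to IV, where 3 did.

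Other large protein machines were counted in the same way. Of 76 tested mitochondrial ribosomal proteins 20 rose (26.3%, median 0.52), of 81 cytosolic ribosomal proteins 9 rose (11.1%, median 0.38) and of 38 proteasome subunits 2 rose (5.26%, median 0.23), a share like that of all genes. Without KO stage III replicates 1 and 3 the medians were -0.05, 0.04 and -0.07. From WT stage II to IV, 57 of the 81 cytosolic ribosomal proteins fell, with a median of -0.74, against -0.17 for the mitochondrial ribosomal proteins, -0.14 for the proteasome and -0.15 for the members.

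Genes most like the members' median over the 6 group means of log2 CPM were Cox19 (Pearson r = 0.998), Washc3 (0.998), Msmo1 (0.997), Supt4a (0.997) and Hsd17b10 (0.996). Over the 5 groups without KO stage III the nearest were Kars, Ap3s2, Mrpl51, Acsf3 and Mrpl39, each above 0.999. With 5 or 6 points from shared libraries these values only describe the order of the genes.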

How the data were processed

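RNA sequencing counts of 18 libraries (6 groups of 3) were used. The authors aligned and counted reads with STAR 2.0.4 and featureCounts 1.4.5 of Subread, per the submitters' processing notes. Build, read type and strandedness: not given in the sources used here. The deposited files hold, per the file headers, a raw count, a CPM and an RPKM for every gene. The deposited CPM equals the count over the library total, and the deposited RPKM that CPM per kilobase of listed length, so only the authors' raw counts were used. All 82 member IDs overlapped their GENCODE M21 (GRCm38) positions.

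The test was edgeR 4.0.16 (R 4.3.3) on the counts: filterByExpr by group (14156 genes kept), TMM scaling, 1 robust quasi-likelihood fit of the 6 groups, Benjamini-Hochberg adjustment over all tested genes, and a call at an adjusted p under 0.05. An adjusted p with no other tool named is from this test. Standard errors are the absolute log2 fold change over the square root of F, and the prior count was 0.125 for fitted fold changes. The scripts were tested on simulated counts. Copies were found with blastn 2.17.0. Alternatives were DESeq2 1.42.0 and its size factors, upper quartile scaling, limma 3.58.1 voom with quality weights, no filter, the replicate block, fits of only the groups compared, and leaving out libraries.

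Among the groups compared directly, same-numbered libraries deviated together in all 3 pairs only between WT stages (correlations 0.13 to 0.49), where the numbers were used as pairs. They were -0.10 to 0.17 between WT and KO of the same stage and -0.04 to 0.13 between KO stages II and IV. Of groups not compared directly, KO stage II with KO stage III (0.15 to 0.31) and with WT stage IV (0.13 to 0.29) also passed 0.1 in all 3 pairs, and other pairs of WT with KO ran from -0.50 to 0.33.

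Members were named if among the 5 highest or lowest called in KO against WT or WT stage IV against II, highest per complex, core catalytic, paralogous isoforms, named by an earlier account, or untested. Other names were chosen after their values were seen. Members and gene lists were chosen with earlier results of these data known. The motif letters were shortened after a longer form had been searched. Values of a few genes are not reported here.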

Additional observations from a re-analysis of the deposited data

Results flagged for a closer look

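Cox6a2 and Cox7a2l were the named members in which all 3 KO libraries lay below all 3 WT libraries at stage II and above all 3 at stage III. They were picked by that pattern, so their interaction values, from the same libraries, are no independent support for it. The share of all tested genes with the pattern is not given. For Cox6a2 the KO against WT effect at stage III minus that at stage II was 2.13 ± 0.46 on the log2 scale (edgeR interaction, adjusted p = 0.109). DESeq2 gave an adjusted p of 0.00305 and limma voom 0.00824 for it. For Cox7a2l the difference of effects was 0.48 ± 0.16 (edgeR interaction, adjusted p = 0.342). The stage III part was largest in KO replicates 1 and 3, the libraries that stood apart. There the log2 difference from mean WT stage III was 1.75 and 1.52 for Cox6a2, and 0.65 in replicate 2. For Cox7a2l it was 0.50 and 0.34, and 0.13 in replicate 2.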

How the results depend on the processing

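Values are numbers of members called, without the share of all tested genes called, which also changed between settings. From WT stage II to IV, all tested genes called lower were 9.82% in the main fit. With WT libraries alone they were 18.1%, and with the WT-only block 23.6%. From KO stage II to IV they were 8.79%, and 15% without all 3 KO stage III libraries. A larger count is thus not by itself a result about the members. For KO against WT at stage II, limma voom with quality weights called 1 and each of the 18 fits without a library 0. At stage III, DESeq2 called 40, the fit with no filter 30, scaling by totals 7, the fit of only its groups 0 and the fit without KO replicates 1 and 3 0. Leaving out single libraries gave 0 to 62 at stage III and 0 at stage IV. Without those replicates the log2 fold changes of called members turned to -0.075 for Atp5e, -0.0238 for Cox5a, -0.0744 for Ndufa7, -0.142 for Ndufc1 and -0.0847 for Uqcr10, and the cause was not tested.

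For WT stage III against II, voom and the WT-only fit with the replicate block called 4 each, and leaving out single libraries gave 0 to 1. For WT stage IV against III, the counts were 8 with voom, with only its groups and with WT libraries alone, 1 with no filter, 4 without the KO stage III libraries 1 and 3, 5 without all 3 and 22 with the WT-only block, with 0 to 2 over single libraries left out. For WT stage IV against II, they were 25 with voom, 14 without KO stage III replicates 1 and 3, 19 without all 3, 21 with only its groups, 9 with scaling by totals, 22 with WT alone and 37 with the WT-only block, with 2 to 6 over single libraries left out. For KO stage IV against II, they were 2 with DESeq2 size factors, upper quartile scaling, the replicate block and only its groups, 6 with DESeq2 and with totals, 23 with voom, 16 without KO stage III replicates 1 and 3 and 16 without all 3, with 1 to 10 over single libraries left out.

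For the interactions, DESeq2 and voom called 1 each for stage III against II, and the fit with no filter 3, with 1 for IV against II and 2 for IV against III. Leaving out single libraries gave 0 to 58, 0, and 0 to 56. The replicate block over all 18 libraries gave 26 members for KO against WT at stage III, 5 for WT stage IV against II and 2 for WT stage IV against III. The depth of 18684350 to 28365837 counts leaves isoforms at a few CPM with the widest errors.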
